A study of Mus musculus with 8 samples.

Results

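Replication-dependent histone genes were followed in epidermal cells of aged and adult mice. The members were the rows of the count table whose mouse symbol or listed synonym begins with Hist1h, Hist2h, Hist3h or Hist4h. RefSeq lists 70 such genes, and 69 of them are among the 27179 genes of the table. The remaining one, H2ac14 (Hist1h2aj), was not analysed here. By type these are 6 linker histone H1 genes, 19 H2A, 19 H2B, 12 H3 and 13 H4 genes. By older symbol, 55 belong to Hist1 on chromosome 13, 10 to Hist2 on chromosome 3, 3 to Hist3 on chromosome 11 and 1 to Hist4 on chromosome 6. One of the Hist1 genes, H2af-ps2, starts at position 51200084, far from the others, which start between 21715711 and 23934437.

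Bulk RNA sequencing covered 2 groups of 4 libraries from C57bl/6J mice, every library from its own mouse according to the methods of the study. The count table is named for a single time of day, ZT12, and the methods state that mice were killed in the dark phase. Other times of day were not compared here. The labels give 73 weeks for the aged and 17 to 25 weeks for the adult mice, and Control IgG for every sample, dosed at 210 µg in 100 µl, 3 times per week for 12 weeks. The methods describe those injections for ageing mice only and give the aged mice a higher age. Every label, adult ones included, also starts the treatment at 73 weeks, which the adult ages in the same labels exclude. In the methods, the IgG-injected mice belong to a second bulk comparison, against antibody-treated mice, with another library kit. Thus the age of the aged mice is not settled here, nor is whether either group was injected. If only aged mice were injected, injection and age cannot be told apart.

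Replication-dependent histones package newly made DNA, and their mRNAs build up in S phase and are degraded when DNA synthesis stops. The core histones H2A, H2B, H3 and H4 form the nucleosome, and H1 binds the DNA between nucleosomes. Most of these mRNAs carry no poly(A) tail. They end after a conserved stem-loop bound by the protein Slbp, so a library made from poly(A) RNA would miss most of them. In the epidermis, S phase is a property of the dividing basal layer and of the growing hair follicle.

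The labels call the molecule polyA RNA, whereas the protocol describes a total RNA kit and depletion of ribosomal RNA. Of 6 small RNAs with no poly(A) tail, Rn7sk, Rmrp and Rpph1 were abundant over the 8 libraries, at 7443 to 11190, 4252 to 6215 and 3715 to 6043 CPM (counts scaled to one common library total). Rny3 (47.5 to 229 CPM), Rny1 (22.9 to 94.7 CPM) and the telomerase RNA Terc (3.96 to 7.63 CPM) were lower. These levels were not compared with those of a poly(A) library. Histone members held 45556 to 127605 counts per library, or 0.0587% to 0.150% of all counts.

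The 3′ stem-loop is shown because it sets how these mRNAs end. A stem of 6 paired bases around a 4-base loop was searched in the GENCODE transcripts of the members, spelled as GGNNN, then TTNTNA, then NNNCC, on the transcript strand. It was found in 46 of 69 members, against 109 of 55272 other genes (0.197%). By type it was found in 4 of 6 H1, 11 of 19 H2A, 10 of 19 H2B, 9 of 12 H3 and 12 of 13 H4 genes. In 43 of the 46 it ended 4 to 8 bases before the RefSeq 3′ end. No match says only that these letters are not in the transcript searched. For H2ac13 that transcript has 393 bases, while its RefSeq gene spans 448, and for H3c10 these are 411 and 488. In the following sites, read on the mouse GRCm38 build, capitals mark the stem and loop.
H1f2 (chr13:23739512-23739527, plus strand): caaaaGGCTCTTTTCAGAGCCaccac
H2bc14 (chr13:21722506-21722521, plus strand): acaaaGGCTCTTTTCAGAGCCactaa
H3c7 (chr13:23544932-23544947, plus strand): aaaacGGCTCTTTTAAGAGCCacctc
H3c8 (chr13:23535889-23535904, plus strand): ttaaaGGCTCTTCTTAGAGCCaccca
H4c17 (chr13:21812129-21812144, plus strand): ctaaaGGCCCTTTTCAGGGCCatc
H4c11 (chr13:21735437-21735452, plus strand): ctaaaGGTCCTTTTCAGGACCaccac
H4c1 (chr13:23760800-23760815, minus strand): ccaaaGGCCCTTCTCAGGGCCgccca

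The form printed for H1f2 and H2bc14 was the commonest, in 26 members, and none of these was an H4 gene. H4 genes carried other stems, with the form of H4c17 in 7 of them, that of H4c11 in 2 and that of H4c1 in 1. Printed coordinates cover the capitals.

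The start sites of these genes also differ by type. RefSeq windows from 250 bases before to 50 after the start (GRCm38.p6) were at hand for 62 members in 63 windows, and 4 motifs were searched on both strands. CCAAT was in all 6 H1, 18 H2A, 17 H2B and 10 H3 windows but in 3 of 12 H4 windows, against 37.4% of all 32851 windows. TATAAA was in 55.6% of the member windows against 13.6% of all. The octamer ATTTGCAT was in 7 of 18 H2A and 7 of 17 H2B windows and in 0 H1, H3 or H4 windows, against 1.74% of all. Where an H2A and an H2B gene start close together, their windows overlap and a single octamer counts under both types. This holds for H2ac12 with H2bc12, H2ac8 with H2bc8 and H2ac1 with H2bc1. The H1 box AAACACA was in 5 of 6 H1 windows, against 7.18% of all. None of these motifs contains another. A match is a description of the letters and was not tested as a binding site.

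Windows of the member with the highest level per length in each type follow, with H2bc18, the third by that level among H2B genes, added for its octamer. Capitals mark the 4 motifs on either strand, so that ATTGG is CCAAT read on the opposite strand.
H1f2 (chr13:23738557-23738856, plus strand): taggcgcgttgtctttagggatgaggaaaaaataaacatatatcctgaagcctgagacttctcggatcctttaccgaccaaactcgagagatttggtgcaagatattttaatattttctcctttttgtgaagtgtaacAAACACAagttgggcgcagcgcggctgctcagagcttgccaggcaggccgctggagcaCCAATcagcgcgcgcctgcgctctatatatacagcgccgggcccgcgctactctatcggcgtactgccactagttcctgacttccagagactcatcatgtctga
H2ac13 (chr13:21716162-21716461, plus strand): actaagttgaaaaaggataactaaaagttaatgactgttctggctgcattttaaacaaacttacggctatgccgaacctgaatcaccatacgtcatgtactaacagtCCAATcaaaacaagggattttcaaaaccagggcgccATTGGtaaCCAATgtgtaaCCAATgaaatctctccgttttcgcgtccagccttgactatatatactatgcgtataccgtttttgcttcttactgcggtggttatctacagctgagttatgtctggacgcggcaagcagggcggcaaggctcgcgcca
H2bc13 (chr13:21716134-21716433, minus strand): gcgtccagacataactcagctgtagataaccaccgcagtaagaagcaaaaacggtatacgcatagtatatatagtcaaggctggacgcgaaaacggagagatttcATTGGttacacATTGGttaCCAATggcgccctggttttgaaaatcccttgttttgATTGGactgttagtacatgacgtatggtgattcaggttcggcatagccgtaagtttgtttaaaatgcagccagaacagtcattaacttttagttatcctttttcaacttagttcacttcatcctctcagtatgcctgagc
H2bc18 (chr3:96269450-96269749, plus strand): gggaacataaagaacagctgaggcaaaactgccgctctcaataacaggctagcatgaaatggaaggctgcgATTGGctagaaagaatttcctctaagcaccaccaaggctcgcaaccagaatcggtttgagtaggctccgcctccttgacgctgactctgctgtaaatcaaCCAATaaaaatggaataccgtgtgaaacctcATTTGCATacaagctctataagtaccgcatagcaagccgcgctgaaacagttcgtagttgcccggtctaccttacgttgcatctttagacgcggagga
H3c10 (chr13:21717378-21717677, plus strand): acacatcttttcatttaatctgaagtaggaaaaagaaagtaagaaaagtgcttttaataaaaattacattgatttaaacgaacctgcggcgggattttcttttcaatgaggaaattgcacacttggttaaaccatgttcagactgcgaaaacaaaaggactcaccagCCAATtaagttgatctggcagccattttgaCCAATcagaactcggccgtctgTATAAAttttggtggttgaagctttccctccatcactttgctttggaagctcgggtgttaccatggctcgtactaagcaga
H4c12 (chr13:21750504-21750803, minus strand): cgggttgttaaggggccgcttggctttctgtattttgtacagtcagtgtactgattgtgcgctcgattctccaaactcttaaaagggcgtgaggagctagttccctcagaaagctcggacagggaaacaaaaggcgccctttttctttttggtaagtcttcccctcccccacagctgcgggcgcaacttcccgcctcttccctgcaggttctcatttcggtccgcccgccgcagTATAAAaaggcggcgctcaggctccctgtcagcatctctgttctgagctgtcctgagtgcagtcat

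The windows of H2ac13 and H2bc13 overlap, since these genes start 229 bases apart on opposite strands. In all, 10 such divergent pairs of an H2A and an H2B gene start within 500 bases of each other, at a median distance of 204.5 bases. In each of the 9 pairs with both genes tested, both log2 fold changes (aged over adult) were above 0, such as 0.17 for H2ac13 beside 0.27 for H2bc13, and 0.59 for H2ac8 beside 0.28 for H2bc8. Paired or not, 17 of 18 tested H2A and 15 of 18 tested H2B genes were above 0, where 52.1% of all tested genes were. The count of pairs is thus near that of their types and is no trait of the pairs.

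In the main test by edgeR no histone member was called different between aged and adult cells. Of the other fits to all 8 libraries, the study's settings with an assumed batch called 1, H4c1. Of the 69, 66 passed the expression filter, and 0 of them were called by the quasi-likelihood test of edgeR at an adjusted p under 0.1 and a change of over 25%, where 0.113% of all 17702 tested genes were called. At an unadjusted p under 0.05 there were 0 as well, against 5.99% of all tested genes. DESeq2 without a batch called 0, where it called 0.863% of all genes, and limma-voom 0, where it called 0.096%. With the replicate number as a block 0 were called as well (0.0169% of all genes), while 20 were higher at an unadjusted p under 0.05 (6.1% of all genes) and 1 was lower. The lowest adjusted p among the members was 0.836 by edgeR, 0.732 by DESeq2 without a batch, 0.832 by limma-voom and 0.315 with the block. In none of the 66 did the 4 aged values all lie on one side of the 4 adult values, against 3.54% of all tested genes.

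The estimates leaned one way without passing. Of the 66, 62 (93.9%) had a log2 fold change above 0, where 52.1% of all tested genes did, and their median was 0.30 where that of all tested genes was 0.01. The members share their regulation and, in part, their sequence, so these are not 66 separate observations. No log2 fold change was larger than 2 of its standard errors (SE), which ran from 0.14 to 0.47. The plot of fold changes by gene shows the medians by type, which were 0.41 for H1, 0.29 for H2A, 0.27 for H2B, 0.40 for H3 and 0.30 for H4.

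**Figure D1:**
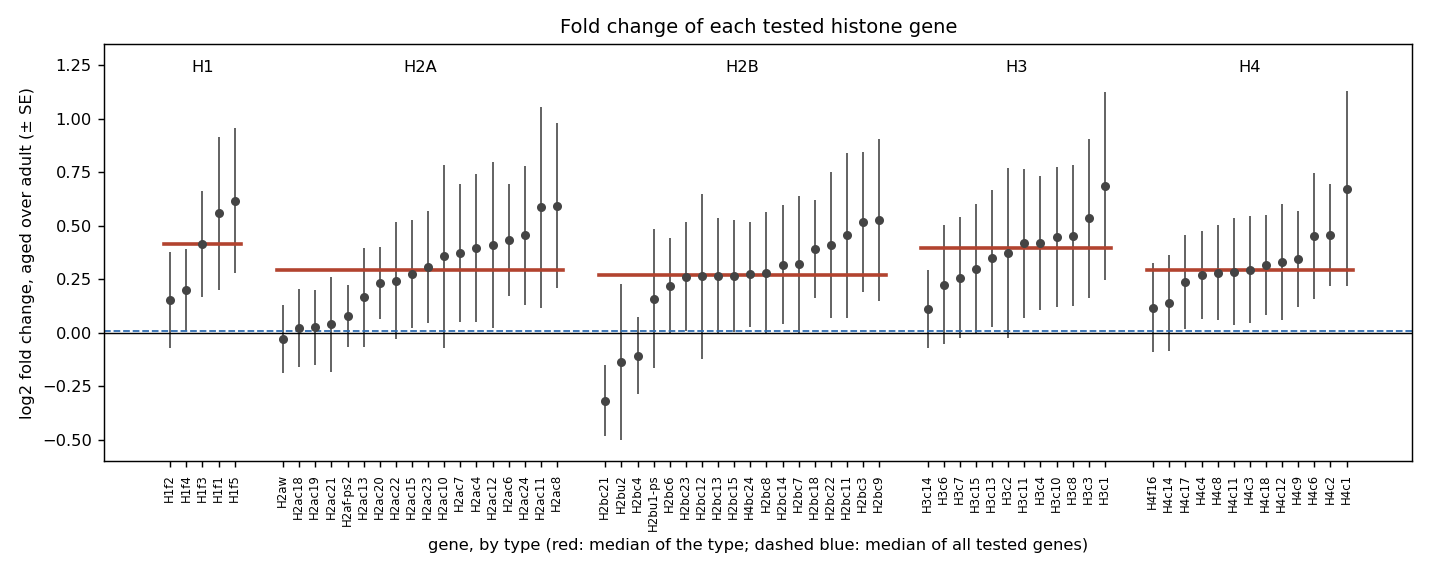
Log2 fold change of each of the 66 tested histone genes, aged over adult, on the y axis, with bars for the SE of the edgeR fit, and genes grouped by type along the x axis. The red lines give the median of each type, from 0.27 for H2B to 0.41 for H1, the dashed blue line gives the median of all tested genes (0.01), and 4 genes lie below 0.

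The score of each library was the mean, over the 66 tested members, of log2 CPM minus the member's own mean over the 8 libraries. It was 0.45, 0.27, -0.20 and 0.23 in aged replicates 1 to 4 and -0.18, 0.40, -0.97 and 0.002 in adult replicates 1 to 4. Adult replicate 3 stood lowest, aged replicate 1 and adult replicate 2 stood highest, and the groups overlapped. The group means were 0.19 ± 0.27 in aged and -0.19 ± 0.57 in adult cells (SD, n = 4 each), a difference of 0.37 that fell to 0.11 without adult replicate 3. Between libraries of the same replicate number the score differed by 0.63, -0.13, 0.77 and 0.22 (aged minus adult).

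Adult replicate 3 was the lowest library for 59 of the 66 members (89.4%), while it was the lowest for 22.8% of all tested genes. Its level was a median of 0.483 times the mean of the other 3 adult libraries over the members and 0.992 times over all tested genes. Without that library the median log2 fold change of the 66 was 0.12, with 56 above 0. Without adult replicate 2, the highest adult library for 62 members, it was 0.52, and 16 members were higher at an unadjusted p under 0.05 (2.96% of all genes tested there), with 0 called. Within the aged group replicate 3 was the lowest library for 64 members.

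**Figure D2:**
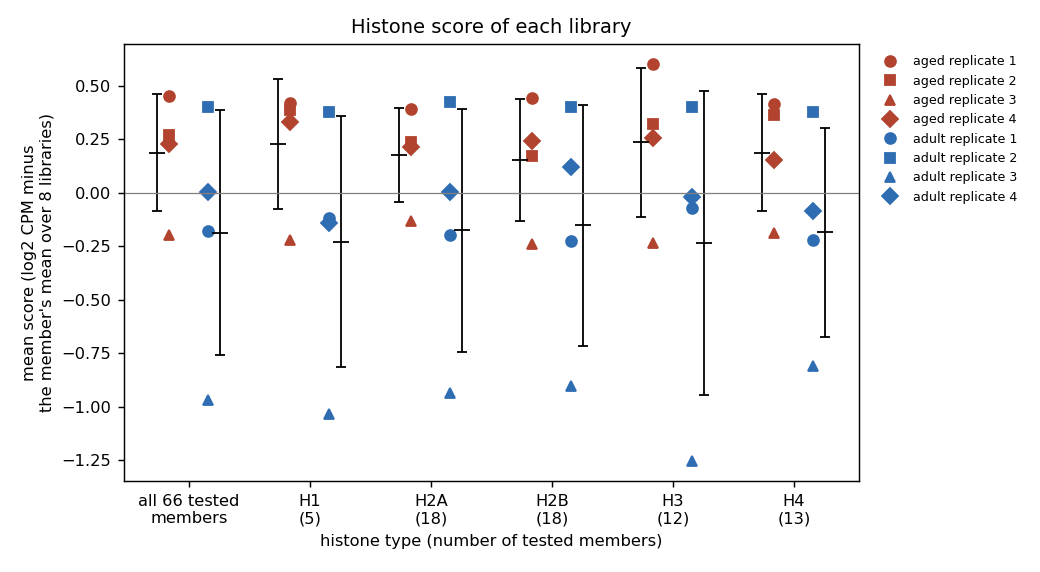
Mean score of each library (y axis, log2 CPM minus the member's mean over 8 libraries) for all 66 tested members and for each histone type along the x axis. Points are libraries, and black bars give the group mean and SD (n = 4). Adult replicate 3 lies lowest in every column, at -0.97 over all members, and adult replicate 2 lies among the aged libraries at 0.40.

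The types moved together across libraries. In adult replicate 3 the score was -1.03 for H1, -0.94 for H2A, -0.90 for H2B, -1.26 for H3 and -0.81 for H4, and in aged replicate 1 it was 0.42, 0.39, 0.44, 0.60 and 0.42 in the same order. H3 thus spanned the widest range of the 5 types and H4 the narrowest. The heat map of single genes shows the same column for nearly all rows.

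**Figure D3:**
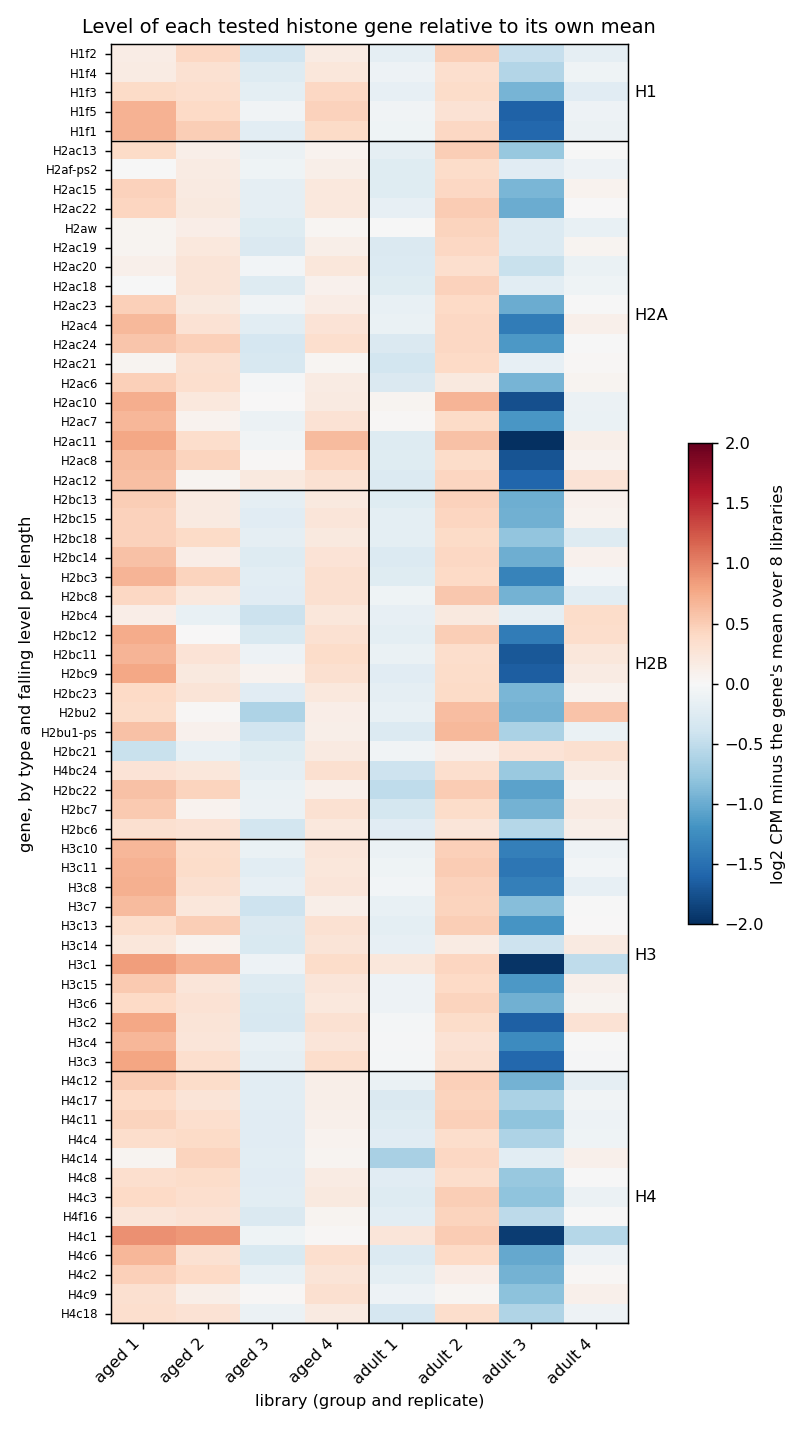
Level of each of the 66 tested histone genes (rows, by type and falling level per length) in each library (columns, aged then adult), as log2 CPM minus the gene's mean over the 8 libraries, red above and blue below. Adult replicate 3 is blue in most rows, being the lowest library for 59 genes, and H2bc21 is an exception with its lowest value in aged replicate 1.

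Summed over the 69 members, the level was 1433, 1322, 929 and 1235 CPM in aged replicates 1 to 4 and 952, 1447, 624 and 1039 CPM in adult replicates 1 to 4. The means were 1230 ± 216 and 1016 ± 338 CPM (SD, n = 4 each), a ratio of 1.21, and of 1.07 without adult replicate 3. In bulk samples fewer dividing cells and less histone RNA per cell cannot be told apart. The histone counts were divided among the types as follows. These counts were not scaled by gene length and leave out multi-mapping reads. Gene length and the share of sequence unique to a gene both differ by type. The shares therefore compare libraries within a type and do not give the make-up of the histone mRNA pool. H4 genes held 25.1% ± 1.06 of histone counts in aged and 24.9% ± 0.767 in adult cells, H2B 22.5% ± 0.92 and 22.4% ± 1.11, and H1 20.1% ± 1.36 and 20.2% ± 1.06 (SD, n = 4 each). H2A held 17.7%, 17.8%, 20.02% and 18.5% in aged replicates 1 to 4 and 19.2%, 19.5%, 21.98% and 19.7% in adult replicates 1 to 4. The groups overlapped, while between libraries of the same number aged was lower in 4 of 4, with differences of -1.49, -1.70, -1.96 and -1.16 percentage points. H3 held 15.2%, 13.4%, 13.1% and 13.4% in aged replicates 1 to 4 and 13.8%, 13.3%, 9.35% and 13.0% in adult replicates 1 to 4. Adult replicate 3 was the library with the lowest H3 share, and the other 7 lay between 13.0% and 15.2%. Between libraries of the same number the H3 share was higher in aged in 4 of 4, by 1.40, 0.11, 3.75 and 0.40 points. Neither difference in share was tested, and with 4 pairs no exact paired test could pass.

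H1 genes encode the linker histones. H1f2 (Hist1h1c), the member of highest level per length among them, stood at 118 ± 25.5 CPM per kilobase in aged and 106 ± 32.5 in adult cells (SD, n = 4 each). Its level was 87.4, 105, 60.5 and 88.6 CPM in aged replicates 1 to 4 and 69.6, 111, 57.2 and 69.5 CPM in adult replicates 1 to 4. The lowest values of both groups were in replicate 3 and the groups overlapped, with a log2 fold change of 0.15 ± 0.22 (SE). H1f5 (Hist1h1b) was at 32.5, 26.7, 19.2 and 27.8 CPM in aged and 19.2, 24.5, 6.55 and 18.9 CPM in adult replicates 1 to 4. Its log2 fold change was 0.62 ± 0.34 (adjusted p = 0.836). H1f4 (Hist1h1e) and H1f3 (Hist1h1d) differed by 0.20 ± 0.19 and 0.41 ± 0.25. H1f5 in adult replicate 3 was at 0.314 times the mean of the other adult libraries, and H1f2 at 0.686 times. The testis linker histone gene H1f6 (Hist1h1t) had 0 to 10 counts per library and was not tested.

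Among the H2A genes H2ac13 (Hist1h2ai) had the highest level per length, 150 ± 22.3 CPM per kilobase in aged and 134 ± 46.8 in adult cells (SD, n = 4 each). It stood at 70.9, 58.7, 49.8 and 57.0 CPM in aged and 48.2, 76.6, 32.1 and 53.8 CPM in adult replicates 1 to 4. Adult replicate 2 was its highest library and adult replicate 3 its lowest, and its log2 fold change of 0.17 ± 0.23 turned to -0.01 without adult replicate 3. H2af-ps2 (Hist1h2al), a transcribed pseudogene in RefSeq, H2ac15 (Hist1h2ak) and H2ac22 (Hist1h2an) followed, with log2 fold changes of 0.08 ± 0.15, 0.28 ± 0.25 and 0.24 ± 0.27. The length used for H2af-ps2 was 339 bases, where its RefSeq span is 2983, so its rank depends on the length chosen. H2ac8 (Hist1h2ae) had one of the 4 highest log2 fold changes, 0.59 ± 0.39 (adjusted p = 0.846), with 2.19, 1.93, 1.43 and 1.90 CPM in aged and 1.19, 1.83, 0.425 and 1.48 CPM in adult replicates 1 to 4. At the other end H2aw (Hist3h2a) was at 23.8, 25.3, 19.5 and 23.6 CPM in aged and 22.9, 31.3, 19.05 and 20.9 CPM in adult replicates 1 to 4 (-0.03 ± 0.16). This value turned above 0 without aged replicate 3 (0.04) and without adult replicate 2 (0.13). The testis gene H2ac1 had 0 or 1 counts per library.

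H2bc13 (Hist1h2bl) led the H2B genes at 173 ± 32.8 CPM per kilobase in aged and 144 ± 55.7 in adult cells (SD, n = 4 each). It stood at 81.7, 65.4, 51.1 and 66.2 CPM in aged and 49.1, 79.9, 29.4 and 61.6 CPM in adult replicates 1 to 4, with a log2 fold change of 0.27 ± 0.27. H2bc15 (Hist1h2bn) and H2bc14 (Hist1h2bm) had values of 0.27 ± 0.26 and 0.32 ± 0.28. For H2bc18 (Hist2h2bb), in which every 50-base window occurs in no other gene's transcript, levels were 62.0, 59.0, 39.9 and 52.0 CPM in aged and 39.5, 58.7, 26.2 and 37.8 CPM in adult replicates 1 to 4. Its log2 fold change was 0.39 ± 0.23 (adjusted p = 0.836).

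H2bc21 (Hist2h2be), which encodes the H2B variant known from olfactory neurons of the mouse, went the other way. It stood at 4.63, 5.68, 5.32 and 7.15 CPM in aged and 5.98, 6.92, 7.63 and 7.84 CPM in adult replicates 1 to 4. The aged replicates 1 to 3 lay under all adult values and aged replicate 4 lay among them. Its log2 fold change of -0.32 ± 0.16 was the lowest of the 66 and did not pass (adjusted p = 0.836, edgeR). It was the 1 member whose level in adult replicate 3 was above the mean of the other adult libraries, at 1.10 times. H2bc4 (Hist1h2bc), with a log2 fold change of -0.11 ± 0.18, was at 7.80 to 12.3 CPM in aged and 9.25 to 13.5 CPM in adult cells, and turned to 0.004 without aged replicate 3 or without adult replicate 4. No stem-loop match was found in the transcripts of H2bc21 and H2bc4, of 2620 and 1156 bases. A match was found in H2bu2 and H2aw, the other members below 0. The median log2 fold change was 0.32 over the 45 tested members with a match and 0.27 over the 21 without. H2bu2 (Hist3h2ba) was at -0.14 ± 0.37 and low, at 0.898 to 1.77 CPM in aged and 0.713 to 2.12 CPM in adult cells. Its value turned above 0 without aged replicate 3, without adult replicate 2 and without adult replicate 4.

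All 12 H3 genes had a log2 fold change above 0, from 0.11 to 0.69. H3c10 (Hist1h3h) had the highest level per length, 116 ± 25.6 CPM per kilobase in aged and 85.2 ± 38.8 in adult cells (SD, n = 4 each). It stood at 60.9, 49.1, 35.3 and 45.8 CPM in aged and 35.5, 53.9, 14.9 and 35.9 CPM in adult replicates 1 to 4, with a log2 fold change of 0.45 ± 0.33. Adult replicate 3 was at 0.357 times the mean of the other adult libraries, the lowest of all 8. H3c11 (Hist1h3i), H3c8 (Hist1h3g) and H3c7 (Hist1h3f) had values of 0.42 ± 0.35, 0.46 ± 0.33 and 0.26 ± 0.28. H3c1 (Hist1h3a) had the highest log2 fold change of the 66, 0.69 ± 0.44 (adjusted p = 0.842), with 7.40, 6.76, 3.90 and 5.37 CPM in aged and 4.88, 5.64, 1.07 and 2.94 CPM in adult replicates 1 to 4. The groups overlapped in H3c1 as well.

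H4 is the least varied of the core histones in protein sequence, and all 13 of its genes had a log2 fold change above 0, from 0.12 to 0.67. By the lengths used, H4c12 (Hist1h4k) had the highest level per length of all members, 189 ± 40.2 CPM per kilobase in aged and 150 ± 58.0 in adult cells (SD, n = 4 each). The length used for H4c12 was 312 bases, where its RefSeq span is 409. For H4c17 these were 402 and 405, so the order of these genes depends on the length chosen. H4c12 stood at 72.3, 65.2, 43.6 and 54.9 CPM in aged and 46.0, 70.4, 26.2 and 44.9 CPM in adult replicates 1 to 4, with a log2 fold change of 0.33 ± 0.27. H4c17 (Hist1h4m), H4c11 (Hist1h4j) and H4c4 (Hist1h4d) had values of 0.24 ± 0.22, 0.29 ± 0.25 and 0.27 ± 0.21. H4c1 (Hist1h4a) was at 22.6, 22.0, 11.4 and 12.2 CPM in aged and 14.3, 17.1, 3.22 and 8.15 CPM in adult replicates 1 to 4. Its log2 fold change was 0.67 ± 0.46 (adjusted p = 0.850). It was the 1 member called under the study's settings with an assumed batch (shrunken log2 fold change 0.43, adjusted p = 0.055, DESeq2). There 2.94% of all genes were called. That batch set replicates 1 and 2 against 3 and 4. The batch that the study fitted is not given by the labels and may differ.

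**Figure D4:**
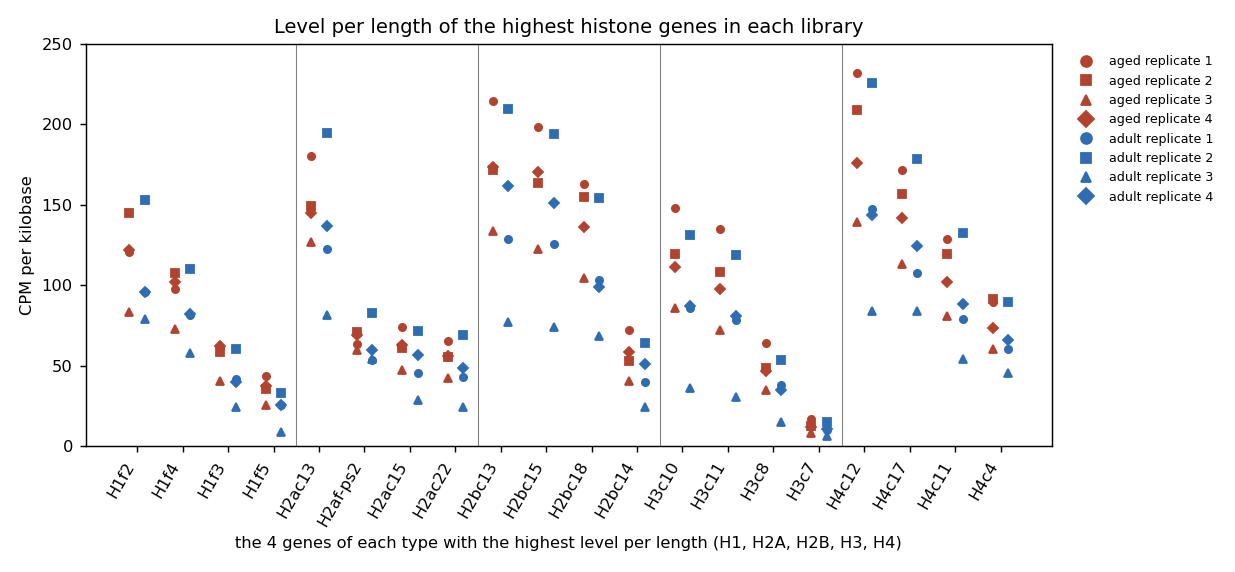
Level per length (y axis, CPM per kilobase) of the 4 highest genes of each type (x axis, H1 to H4 from left to right) in each of the 8 libraries, aged in red and adult in blue. By the lengths used, H4c12 is the highest, at 189 ± 40.2 in aged and 150 ± 58.0 in adult cells (SD, n = 4 each), and adult replicate 3 is the lowest point for every gene shown except H2af-ps2.

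The spread between libraries differed by cluster. The ratio of the highest to the lowest of the 8 libraries had a median of 2.80 over the 52 tested Hist1 genes and of 1.71 over the 10 Hist2 genes, against 1.69 over all tested genes. Without adult replicate 3 these medians were 1.72 and 1.67. Of the 7 members whose lowest library was not adult replicate 3, 5 lie in Hist2, namely H2ac18, H2ac19, H2ac21, H2bc21 and H4c14, and the others are H2bc4 and H2af-ps2. They were named after their values were seen. The median log2 fold change was 0.34 in Hist1 and 0.12 in Hist2. No test of the difference between clusters was made.

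Many of these genes are near-identical copies. Multi-mapping reads were left out of the counts, so single values are uncertain for the members with few unique bases. Among GENCODE transcripts the share of a member's 50-base windows that occur in no other gene was 0% for H2ac19, H2ac24 and H3c15, under 20% for 18 of the 66 and 100% for 5. H2ac19 still had 1264 to 2477 counts per library, and its searched transcript has 528 bases against a RefSeq span of 596. Per the study's methods the reads were paired, at 50 bases each. Single windows leave out the mate, so these shares can overstate how ambiguous the counts are. By type the median share over tested members was 80.9% for H1, 24.05% for H2A, 48.85% for H2B, 24.7% for H3 and 48.8% for H4. The division of histone counts among the types is therefore uncertain as well. The 9 members with at least 80% unique windows were H1f1, H1f2, H1f5, H2aw, H2bc6, H2bc18, H2bc21, H4c14 and H4f16. Their median log2 fold change was 0.15, with 7 of 9 above 0, against 0.32 and 55 of 57 for the rest, and their score in adult replicate 3 was -0.64.

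The genes that make and process histone mRNA were measured beside them. Slbp, which binds the stem-loop, was at 36.8, 39.6, 28.9 and 35.7 CPM in aged and 36.4, 33.3, 18.5 and 22.5 CPM in adult replicates 1 to 4 (0.35 ± 0.21, adjusted p = 0.836, edgeR). Adult replicates 3 and 4 were the lowest libraries. Npat and Casp8ap2, which act at histone loci, differed by 0.18 ± 0.10 each, and Lsm11 of the U7 particle that cuts histone pre-mRNA by -0.05 ± 0.11. Eri1, an exonuclease that trims histone mRNA ends, differed by 0.19 ± 0.08 (adjusted p = 0.805, edgeR). Of the 17 genes of this list 0 were called and 2 were higher at an unadjusted p under 0.05, with a median of 0.10. They were Eri1 and Zfp473, a U7 partner protein (0.70), which was named after its value was seen.

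Replication-independent variants, most of which are made throughout the cell cycle and from polyadenylated mRNA, had a median log2 fold change of 0.05 over 11 genes. Of these 0 were called and 7 were above 0. H3f3a and H3f3b, both of which encode H3.3, differed by 0.05 ± 0.15 and 0.14 ± 0.15, at 228 to 357 CPM and 387 to 537 CPM in aged cells. H2az1 differed by 0.26 ± 0.16 and H2ax, which marks DNA breaks when phosphorylated, by 0.20 ± 0.18. H3f3a turned to -0.04 without aged replicate 2. The 19 histone chaperones, which carry histones to DNA, had a median of 0.11 with 14 above 0 and 0 called.

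The lists of cycling cells varied with the histone genes in part. The median log2 fold change was 0.38 over the DNA replication genes (33 of 33 above 0) and 0.33 over the mitosis genes (22 of 22 above 0), and 0 were called in either. Without adult replicate 3 the difference of their mean scores (aged minus adult) fell from 0.44 to 0.22 for DNA replication and from 0.41 to 0.10 for mitosis. At an unadjusted p under 0.05 there was 1 and 0. Mki67, a marker of cycling cells, was at 201, 157, 167 and 172 CPM in aged and 187, 177, 57.7 and 141 CPM in adult replicates 1 to 4 (0.31 ± 0.30). Pcna, the sliding clamp of DNA replication, was at 125, 118, 85.5 and 96.8 CPM in aged and 110, 106, 53.9 and 65.98 CPM in adult replicates 1 to 4 (0.34 ± 0.24). Adult replicate 3 was the lowest library for both.

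The score of the DNA replication list was -0.89 and that of mitosis -1.13 in adult replicate 3, beside -0.97 for the histone members. In 3 libraries the histone members and the DNA replication list lay on different sides of 0. In adult replicate 4 the histone score was 0.002 and the DNA replication score -0.46. In adult replicate 1 they were -0.18 and 0.24, and in aged replicate 3 -0.20 and 0.10. The score of histone processing genes ranged less, from -0.28 in adult replicate 3 to 0.15 in aged replicate 2.

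**Figure D5:**
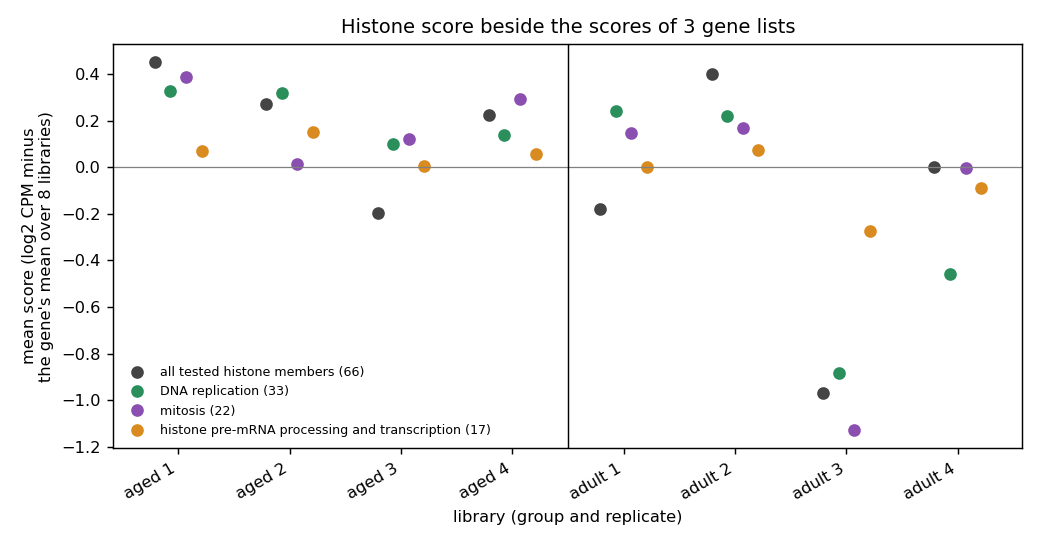
Mean score (y axis, log2 CPM minus each gene's mean over 8 libraries) of the 66 tested histone members, 33 DNA replication genes, 22 mitosis genes and 17 histone processing genes in each library (x axis). In adult replicate 3 the first 3 lie between -1.13 and -0.89, and in adult replicate 4 the histone score is 0.002 beside -0.46 for DNA replication.

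Markers of the cells in these samples were checked beside the histone values. Keratinocyte markers summed to 14545 to 19081 CPM in aged and 14417 to 15911 CPM in adult cells, with 10 of 10 tested. The mean score of the 10 was -0.23, 0.34, 0.05 and -0.05 in adult replicates 1 to 4. Within that list some basal and suprabasal markers differed in direction across the adult libraries. Those given next were picked after their values were seen. The other markers of the list are not given, so no shift of basal or suprabasal markers as a set is claimed. The basal keratin gene Krt5 was at 3910, 4374, 2996 and 2836 CPM in aged and 3509, 3670, 1861 and 1969 CPM in adult replicates 1 to 4, and the basal integrin gene Itga6 at 497, 608, 489.6 and 458 CPM in aged and 524, 512, 235 and 257 CPM in adult replicates. Both were lowest in adult replicates 3 and 4. The suprabasal keratin gene Krt10 was at 2516, 3870.4, 3839 and 6126 CPM in aged and 2309, 3486, 6751 and 6017 CPM in adult replicates 1 to 4, and the envelope gene Ivl, which was lower in aged at an unadjusted p under 0.05 without being called, at 45.5, 60.7, 43.8 and 70.4 CPM in aged and 48.8, 81.3, 127 and 113 CPM in adult replicates. Hair matrix and shaft markers varied most, at 24.0 to 344 CPM in aged and 35.2 to 896 CPM in adult cells. Of them 10 of 10 were tested, with a median log2 fold change of -1.32, and 0 were called or had an unadjusted p under 0.05 by edgeR. Adult replicates 3 and 4 held the most, 444 and 896 CPM, and their histone scores were -0.97 and 0.002. Aged replicate 1, with 344 CPM, had the highest histone score, 0.45. T cell markers summed to 48.8 to 105 CPM in aged and 25.7 to 86.5 CPM in adult cells, with the lowest value in adult replicate 3, and Langerhans cell markers to 188 to 371 and 180 to 356 CPM. That sum contains Epcam, highest in adult replicate 3 at 140.0 CPM, while Cd207, which defines Langerhans cells, was at 6.22 to 31.9 CPM in aged and 25.7, 20.95, 0.863 and 2.94 CPM in adult replicates 1 to 4. Cd74 was at 12.1 CPM and H2-Aa at 6.85 CPM in adult replicate 3, their lowest library, against 125 and 70.8 CPM in adult replicate 1. These marker genes were named after their values were seen. Markers of fibroblasts (4.93 to 48.7 CPM), melanocytes (10.8 to 36.4 CPM), endothelium (1.70 to 3.25 CPM) and erythroid cells (12.7 to 48.9 CPM) were low over all libraries, and Merkel cell markers at 0.0794 to 0.362 CPM were too low to test. Sebocyte markers summed to 541 to 1015 CPM in aged and 613 to 724 CPM in adult cells. Mitochondrial genes held 17.3% to 31.1% of the counts, with 25.3% in adult replicate 3. The part of these differences in the histone values was not tested.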

How the data were processed

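RNA of mouse epidermal cells was counted in 4 aged and 4 adult libraries, grouped by sample title. The authors deposited one table of raw read counts per gene. Per the study's methods, reads were aligned to mm10 with STAR 2.5.2b and counted with featureCounts on its inbuilt annotation. Multi-mapping reads were discarded, reads over several genes counted once per gene, and duplicates stayed in. Strand use in counting is not stated in the sources used, so overlapping antisense genes cannot be told apart. The libraries held 75027694 to 90140102 counts. Members of low level held few of them, such as 23 for H2ac11 in adult replicate 3. The parts of depth and of the spread between mice in the precision were not separated.

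Symbols came from RefSeq (GRCm38.p6) and transcripts from GENCODE on the same build. The main test was edgeR 4.0.16 quasi-likelihood (R 4.3.3) after TMM scaling and edgeR's own expression filter, and p-values were adjusted by Benjamini-Hochberg over 17702 genes. A call needed an adjusted p under 0.1 and a change of over 25%, the thresholds of the study. The study fitted a batch that the labels do not give, so none entered the test. Levels are CPM on the TMM scale. Level per length used the shorter of the GENCODE exon length and the RefSeq span, which for some members is the coding part alone. Scores used log2 CPM with a prior count of 2. On simulated counts for this comparison the median estimates recovered the fold changes that were set, though some changed genes were not called.

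Named genes were every called member, the 4 members of highest level per length in each type, the 4 highest and 4 lowest fold changes among members of at least 1 CPM, and 11 fixed genes. The members, lists and alternatives were chosen with earlier results of these data known. Alternatives were other scalings and filters, DESeq2 1.42.0, limma-voom with limma 3.58.1, a 2-level batch, the replicate number as a block, and libraries left out.

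Both groups carry replicate numbers 1 to 4, whose meaning the labels do not give. Deviations from the group means correlated by 0.156, 0.412, 0.205 and 0.206 between libraries of the same number, each above 0.1. By this check the numbers may pair the samples, a reading that rests on these values and no label. The main test has no block, and the blocked fit is an alternative. Unlike numbers correlated at up to 0.304, for aged replicate 4 with adult replicate 3, and at 0.236 for aged replicate 3 with adult replicate 4. Both exceed the same-number values of replicates 3 and 4, so the check does not separate these numbers from each other. Within a group every pair of libraries differed beyond sampling noise (chi-square of 70.7 to 397 per degree of freedom), so none was deposited more than once. In the adult group this value was 82.3 for replicates 1 and 2, 70.7 for replicates 3 and 4, and 300 to 397 for the other pairs.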

Additional observations from a re-analysis of the deposited data

Results flagged for a closer look

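In 3 of 110 sets of 4 libraries examined, 1 library stood apart from the other 3, which chance does in about 1 set in 20. Each is given by the gap to the nearest library as a share of the set's range, and the limit was Dixon's critical value. H1f3 in aged replicate 3, at 31.6 CPM beside 45.6 to 48.2 CPM in the other aged libraries, had a value of 0.843. The score of H1 genes in aged replicate 3, at -0.22 beside 0.33 to 0.42, had a value of 0.868. The share of H3 among histone counts in aged replicate 1, at 15.2% beside 13.1% to 13.4%, had a value of 0.841.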

How the results depend on the processing

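Over 19 alternative fits 0 members were called higher or lower, except under the study's settings with the assumed batch, where 1 was higher (H4c1). The replicate block changed no call, and under it the median log2 fold change was 0.37 against 0.30. With 1 library left out, or adult replicates 3 and 4 both, that median ran from 0.07 to 0.52, and by type from 0.12 to 0.64 for H1, 0.05 to 0.51 for H2A, 0.08 to 0.49 for H2B, 0.07 to 0.61 for H3 and 0.08 to 0.51 for H4, with 0 called. Of 722 values of 38 named genes under the alternatives, 19 changed sign, and the cause was not tested beyond the libraries left out. Without adult replicates 3 and 4 these were H1f2 (-0.080), H1f4 (-0.0072), H2ac13 (-0.078), H2af-ps2 (-0.046), H2ac22 (-0.032), Mki67 (-0.067), Pcna (-0.022), H3f3a (-0.038) and H3f3b (-0.0091). With 1 library left out the others ran from -0.010 to 0.40 for H2ac13, from -0.37 to 0.056 for H2bu2, from -0.21 to 0.0042 for H2bc4, from -0.12 to 0.13 for H2aw, from -0.099 to 0.046 for Lsm11 and from -0.037 to 0.17 for H3f3a.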
